A study of Mus musculus with 6 samples.

Results

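The 10 genes described here regulate red cell formation or work in the cytosol and at the surface of red cell precursors. They are the transcription factor genes Klf1, Gata1, Tal1, Lmo2 and Nfe2, the receptor genes Epor and Tfrc, and the enzyme genes Bpgm, Car1 and Car2. The genes were chosen with earlier results of these data known. The probe of each was then found through the sequence record or the gene number that the array files give. Each gene had 1 probe, so that the set held 10 of the 13831 genes with a named probe on the array.

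RNA of whole bone marrow (BM) was hybridized in 3 groups with 2 arrays each. The MSC group were female mice, labelled C57BL/6J as in all groups, that received 9.5 Gy of total body irradiation and then cultured mouse mesenchymal stromal cells (mMSCs), with the marrow of 3 mice pooled per array. The HSC group received 9.5 Gy and then unsorted bone marrow cells, which contain hematopoietic stem cells, with 2 mice per array. The BM group was unirradiated and untransplanted marrow, with 2 mice per array. All 3 groups were labelled as 6 to 10 weeks old. The methods name male donors, recipients of the strain C57BL/6J-CD45.1 and a bulk mMSC culture carrying a retroviral eGFP label, which is no single clone. Recipients kept the host marrow cells that survived irradiation, and the arrays do not separate these from donor cells. The time of sampling is day 21 after transplantation in the methods and 7 months in the text of the series, and the files do not settle it. The label protocol names a human version of the array, whereas the probes carry mouse sequence records and the methods name a mouse array. An array stands for a pool of mice, so the spread given here is that between 2 pools and not between single mice.

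Red cells arise in the marrow from committed progenitors that divide under erythropoietin, fill with hemoglobin and lose the nucleus. GATA1, TAL1 and LMO2 act in 1 complex on DNA, and KLF1 and NF-E2 act with them on globin and other red cell genes. Iron for heme enters the precursors through the transferrin receptor, while carbonic anhydrases and bisphosphoglycerate mutase serve carbon dioxide transport and oxygen release in the finished cell. Several of these genes also work outside the red cell lineage. GATA1, TAL1, LMO2 and NF-E2 are needed for megakaryocytes, TAL1 and LMO2 for hematopoietic stem cells, and carbonic anhydrase 2 is abundant in osteoclasts.

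Between 11072 and 12510 of 19801 probes were above background per array, and 139 to 181 were saturated. Values are background-corrected, quantile-normalized log2 intensities, in which a difference of 1 is a factor of 2. They compare 1 probe between arrays and do not rank genes against each other. Of the 10 genes, 8 were above background on all 6 arrays, as were 15 of the 19 red cell membrane and globin genes on the array, so transcripts of the red cell lineage were measured in every pool. The marrow was not sorted, so fewer cells of a type and less RNA per cell cannot be told apart. Of the lists used here, early B cell genes had the median furthest from 0 in MSC against HSC (-2.01). All 12 tested were below 0 in MSC against HSC and in MSC against BM. At an adjusted p under 0.05 by limma, 6 and 4 of them were called, against 0.480% and 0.430% of all probes tested. Their mean level over 10 genes was 8.43 to 8.94 on the MSC arrays, 10.69 to 10.74 on the HSC arrays and 10.03 to 10.22 on the BM arrays. The part of this difference in the values below was not tested.

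Promoter sequence is shown for Klf1, Epor and Bpgm, the members with the widest range over the arrays (4.25, 2.48 and 2.07 on the log2 scale). For Klf1 and Epor the lowest spot of this range was near background. RefSeq windows of build GRCm38.p6 matched 6 of the 10 members by symbol (Klf1, Gata1, Tal1, Epor, Tfrc and Bpgm), whereas Lmo2, Nfe2, Car1 and Car2 are named only. The lines give the 250 bases before the transcription start, 5′ to 3′ on the strand of the gene, with motif matches in capitals. Klf1 lies at chr8:84901732-84901981 on the plus strand, Epor at chr9:21963577-21963826 on the minus strand and Bpgm at chr6:34476106-34476355 on the plus strand.
Klf1: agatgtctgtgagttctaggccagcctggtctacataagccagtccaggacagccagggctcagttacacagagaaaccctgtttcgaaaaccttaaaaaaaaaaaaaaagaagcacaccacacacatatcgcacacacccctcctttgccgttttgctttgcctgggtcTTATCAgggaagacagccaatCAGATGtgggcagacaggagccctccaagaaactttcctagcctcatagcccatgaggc
Epor: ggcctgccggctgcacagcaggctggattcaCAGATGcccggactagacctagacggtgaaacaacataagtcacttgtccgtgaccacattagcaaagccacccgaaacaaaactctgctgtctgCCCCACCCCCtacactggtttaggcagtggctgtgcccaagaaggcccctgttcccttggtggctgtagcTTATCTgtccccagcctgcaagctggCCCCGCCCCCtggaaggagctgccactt
Bpgm: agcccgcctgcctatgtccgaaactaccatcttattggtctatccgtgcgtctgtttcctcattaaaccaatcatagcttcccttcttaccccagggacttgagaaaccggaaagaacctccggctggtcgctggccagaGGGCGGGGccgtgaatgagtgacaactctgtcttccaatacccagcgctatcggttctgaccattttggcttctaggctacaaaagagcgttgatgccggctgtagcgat
Capitals mark, on either strand, a GATA motif (GATA with A or T before it and A or G after it), a CACC motif of the kind bound by KLF factors (CCNCNCCC), an NF-E2 motif (TGANTCA with C or G as its middle base) or a TAL1-type E-box (CAGATG). The Klf1 window held 1 GATA motif, 80 bases before the start, and 1 E-box, 59 bases before it. The Epor window held 1 GATA motif at 54 bases, 1 E-box at 219 bases and 4 CACC matches in 2 overlapping pairs, the pairs beginning 124 and 28 bases before the start. In the Bpgm window, 1 CACC match and no GATA, NF-E2 or E-box match was found. Among the other members, Gata1 had 3 CACC matches, Tal1 had 1 GATA match before one start and 4 CACC matches before the other, and Tfrc had 3 and 2 CACC matches before its 2 starts. Of all 32851 windows of this length, 26.5% held a GATA match, 45.9% a CACC match, 4.46% an NF-E2 match and 14.4% an E-box match. A match is a run of letters, and binding was not measured here.

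No member passed the test in any of the 3 comparisons. In MSC against HSC, all 10 members were tested and all 10 had a higher mean in the MSC group (8 of 10 with median scaling, where Tal1 and Car1 were lower). Limma called 0 of them at an adjusted p under 0.05, against 0.480% of all 11660 probes tested. The lowest adjusted p was 0.293 (limma), and 1 member, Tfrc, had an unadjusted p under 0.05, against 16.9% of all probes tested. The t-test of the study's methods called 0 of 9 members after Benjamini-Hochberg adjustment and 0 at the limits of the study, with 2 at an unadjusted p under 0.05 (Epor and Tfrc), against 0.313% of 10852 probes at those limits and 11.3% at an unadjusted p under 0.05. The median of the members was 0.53 on the log2 scale, against 0.02 over all probes tested, of which 51.5% were above 0. Klf1 entered this comparison through the MSC arrays alone, as 1 HSC spot was left out. The 8 members above background on all 6 arrays all had a higher mean in MSC, with a median of 0.49. For 8 members every usable MSC array lay above every usable HSC array, a pattern shown by 25.7% of all probes tested (27.4% showed the opposite one). Klf1 had 1 usable HSC array, and for Car2 the order is that of saturated spots on 3 of the 4 arrays, which is no measured separation. With median scaling this held for 4 members, Klf1, Epor, Tfrc and Bpgm, a count made after the data were seen. The share of all probes with this pattern was not counted under median scaling, so these 4 have no background beside them.

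In MSC against BM the members divided. Of 10 tested, 8 had a higher mean in the MSC group and 2 a lower one (7 and 3 with median scaling), with a median of 0.30 against 0.01 over all probes. Limma called 0, against 0.430% of 11861 probes tested, and 2 members, Tfrc and Car1, had an unadjusted p under 0.05 by limma (12.4% of all probes) and by the methods' t-test (7.91%), which called 0 at the limits of the study (0.260%) and 0 after adjustment. The arrays of the 2 groups did not overlap for Tfrc, higher in MSC (21.2% of all probes), and for Car1, lower in MSC (22.8%). The Car2 values did not overlap either, but all 4 spots were saturated and so have no measured order. Klf1 and Epor entered this comparison through the MSC arrays alone, as BM replicate 2 was near background for both. Of the 8 members above background on all 6 arrays, 6 had a higher mean in MSC, with a median of 0.17. In HSC against BM, 9 members were tested and 8 had a lower mean in the HSC group (6 with median scaling), with a median of -0.19 against 0.01 over all probes. Limma called 0, against 0.0359% of 11153 probes, and Car1 alone had an unadjusted p under 0.05, by limma (5.37% of all probes) as by the methods' t-test (6.17%), which again called 0 at the limits of the study (0.104%) and 0 after adjustment. Both HSC arrays lay above both BM arrays for Tfrc (21.2% of all probes) and below them for Nfe2 and Car1 (17.1%). The MSC and HSC groups are both set against the same BM arrays, and the HSC arrays enter 2 of the comparisons, so the 3 sets of values are not independent.

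**Figure D1:**
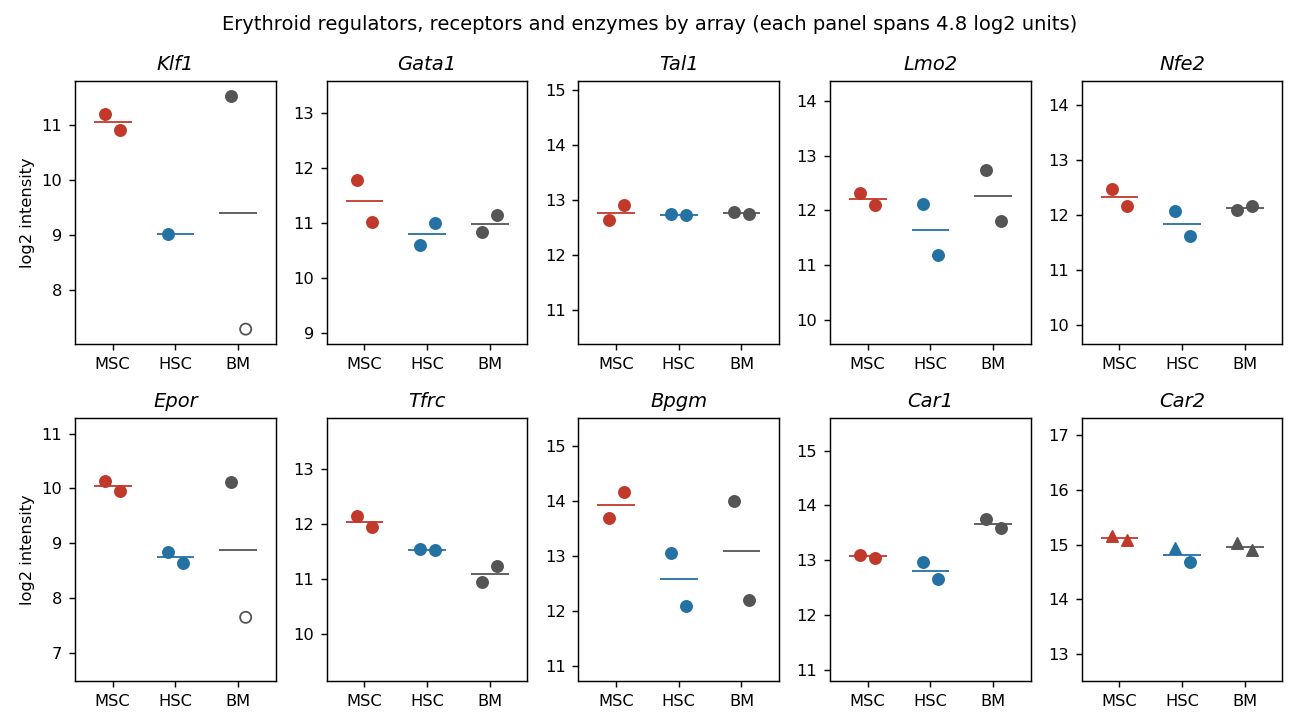
Normalized log2 intensity of each member (y axis, 4.8 log2 units in each panel) on the MSC, HSC and BM arrays (x axis). Filled circles are spots above background, open circles spots near background and triangles saturated spots, with replicate 1 left of replicate 2 and a line at the group mean; Klf1 has no usable spot on HSC replicate 2. Klf1, Epor and Bpgm show the widest gap between the BM arrays as read, at 4.25, 2.47 and 1.81, whereas the 6 Tal1 values lie within 0.27. For Klf1 and Epor the lower BM spot was near background.

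Among the transcription factors, Klf1 had the widest range. Klf1 encodes the zinc finger factor that activates adult beta globin and many other red cell genes. Its log2 intensity was 11.21 and 10.92 on the MSC arrays, 9.02 on the usable HSC array, and 11.53 and 7.28 on the BM arrays. The second HSC spot was marked as contaminated and left out, and the second BM spot was near background, at 1.33 times its local background. MSC pools thus lay above the HSC array and between the BM arrays. The MSC against HSC difference was 2.04 ± 1.55 (SE, 95% interval -1.78 to 5.86, limma adjusted p = 0.542), fitted with 1 HSC array. Against BM it was 1.66 ± 1.27 (-1.46 to 4.78, limma adjusted p = 0.657), with 1 of 2 BM arrays above background. This value rested on the choice of BM array. Without BM replicate 1 it was 3.79 with a limma adjusted p of 0.0121, and without BM replicate 2 it was -0.46 with an adjusted p of 0.701, where the lone BM array is assumed to vary like the other groups. The BM array left by the first of these fits was near background, so 3.79 is not a measured fold. The HSC against BM difference was not tested, since neither group was above background on both arrays.

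Gata1 encodes the X-linked factor without which red cell precursors do not mature. The Gata1 probe read 11.78 and 11.01 on the MSC arrays, 10.60 and 11.00 on the HSC arrays, and 10.83 and 11.15 on the BM arrays. MSC replicate 1 was the highest of the 6, and MSC replicate 2 stood between HSC replicate 2 and BM replicate 2. The differences were 0.59 ± 0.31 in MSC against HSC (limma adjusted p = 0.384), 0.40 ± 0.31 in MSC against BM (adjusted p = 0.658) and -0.19 ± 0.31 in HSC against BM (adjusted p = 0.950). Both MSC differences depended on MSC replicate 1. Without it MSC against HSC was 0.21 and MSC against BM 0.02, while without MSC replicate 2 MSC against HSC was 0.97. The order of the group means was MSC, BM and HSC, and no neighbours in it differed beyond their spread.

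Nfe2 encodes the hematopoietic subunit of NF-E2, which binds the beta globin control region and is required for platelet formation. The Nfe2 probe read 12.48 and 12.17 on the MSC arrays, 12.07 and 11.61 on the HSC arrays, and 12.09 and 12.17 on the BM arrays. Both HSC pools were the lowest, with the MSC and BM pools meeting at 12.17. The differences were 0.49 ± 0.24 in MSC against HSC (limma adjusted p = 0.357), 0.19 ± 0.24 in MSC against BM (adjusted p = 0.805) and -0.30 ± 0.24 in HSC against BM (adjusted p = 0.897).

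Lmo2 encodes the bridging protein of the TAL1 and GATA1 complex. On the log2 scale the Lmo2 probe read 12.31 and 12.09 on the MSC arrays, 12.11 and 11.18 on the HSC arrays, and 12.74 and 11.80 on the BM arrays. All 3 groups overlapped, and the pools of the HSC and of the BM group stood 0.93 apart. The differences were 0.55 ± 0.41 in MSC against HSC (limma adjusted p = 0.522), -0.07 ± 0.41 in MSC against BM (adjusted p = 0.966) and -0.62 ± 0.40 in HSC against BM (adjusted p = 0.897). MSC against HSC was 0.09 without HSC replicate 2 and 1.02 without HSC replicate 1.

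Tal1 encodes the basic helix-loop-helix factor of the same complex. Tal1 stood at 12.64 and 12.90 on the MSC arrays, 12.74 and 12.72 on the HSC arrays, and 12.78 and 12.74 on the BM arrays. The HSC and BM values lay inside the range of the 2 MSC values. The 95% interval of the difference was -0.44 to 0.52 in MSC against HSC, -0.47 to 0.49 in MSC against BM and -0.50 to 0.45 in HSC against BM, so each of these intervals left out a change by a factor of 2 (limma adjusted p = 0.944, 0.990 and 0.991).

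Of the receptors, Tfrc had the smallest p-value among the members in MSC against BM. Tfrc encodes transferrin receptor 1, which brings transferrin-bound iron into dividing cells and is most abundant in erythroblasts. Its log2 intensity was 12.14 and 11.94 on the MSC arrays, 11.54 and 11.53 on the HSC arrays, and 10.94 and 11.23 on the BM arrays. The groups stood in the order MSC, HSC and BM without overlap. The MSC against BM difference was 0.95 ± 0.21 (95% interval 0.45 to 1.45, limma unadjusted p = 0.00297 and adjusted p = 0.178), a factor of 1.93. MSC against HSC was 0.50 ± 0.21 (interval 0.00 to 1.00, limma unadjusted p = 0.0488 and adjusted p = 0.293) and HSC against BM 0.45 ± 0.21 (interval -0.05 to 0.94, limma adjusted p = 0.897). Among all probes tested in MSC against BM, 379 had a larger positive difference than Tfrc. With each array left out in turn, MSC against BM stayed between 0.81 and 1.09, with a lowest limma adjusted p of 0.237.

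Epor encodes the erythropoietin receptor, through which JAK2 and STAT5 keep late progenitors alive. Epor stood at 10.13 and 9.95 on the MSC arrays, 8.85 and 8.64 on the HSC arrays, and 10.12 and 7.65 on the BM arrays. The MSC pools lay above the HSC pools, whereas 1 BM array was at the MSC level and the other was near background, at 1.70 times its local background. The MSC against HSC difference was 1.29 ± 0.70 (95% interval -0.37 to 2.95, limma adjusted p = 0.394), a factor of 2.45. The SE came from all 6 arrays, including the split BM pair. When only the 4 MSC and HSC arrays were fitted, the limma adjusted p was 0.0740 for Epor and 0.0716 for Klf1. Against BM the MSC difference was 1.15 ± 0.70 (adjusted p = 0.561), but 2.39 without BM replicate 1, against an array near background (adjusted p = 0.0235), and -0.08 without BM replicate 2 (adjusted p = 0.963). HSC against BM was -0.14 ± 0.68 (adjusted p = 0.985), and 1.10 without BM replicate 1 and -1.37 without BM replicate 2.

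Bpgm was the enzyme gene with the widest range. It encodes bisphosphoglycerate mutase, which makes the 2,3-bisphosphoglycerate that lowers the oxygen affinity of hemoglobin. Bpgm stood at 13.70 and 14.16 on the MSC arrays, 13.06 and 12.08 on the HSC arrays, and 14.00 and 12.19 on the BM arrays. Both MSC pools lay above both HSC pools, and the BM pools were split between the MSC and the HSC levels. The differences were 1.36 ± 0.60 in MSC against HSC (95% interval -0.07 to 2.79, limma adjusted p = 0.317), 0.83 ± 0.60 in MSC against BM (adjusted p = 0.634) and -0.53 ± 0.59 in HSC against BM (adjusted p = 0.918). MSC against BM was 1.74 without BM replicate 1 and -0.07 without BM replicate 2.

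Car1 encodes carbonic anhydrase 1, a main cytosolic protein of mature red cells. Its log2 intensity was 13.09 and 13.05 on the MSC arrays, 12.97 and 12.65 on the HSC arrays, and 13.75 and 13.59 on the BM arrays. It was the 1 member with both recipient groups below unirradiated marrow on every array. HSC against BM was -0.86 ± 0.21 (95% interval -1.36 to -0.37, limma unadjusted p = 0.00445 and adjusted p = 0.643), a factor of 1.82. MSC against BM was -0.61 ± 0.21 (interval -1.11 to -0.10, limma unadjusted p = 0.0252 and adjusted p = 0.327). The MSC against HSC difference was 0.26 ± 0.21 (adjusted p = 0.570), and -0.04 with median scaling. Of the 11153 probes tested in HSC against BM, 1.39% had a lower value than Car1.

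Car2 encodes carbonic anhydrase 2, the fast isoform of red cells and osteoclasts. Its log2 intensity was 15.15 and 15.09 on the MSC arrays, 14.93 and 14.68 on the HSC arrays, and 15.03 and 14.90 on the BM arrays, and the spot was saturated on 5 of the 6 arrays, HSC replicate 2 excepted. Saturation caps these values in all 3 groups, so no fold is given. Between the values as read, the log2 difference was 0.32 in MSC against HSC (limma adjusted p = 0.462), and 0.02 with median scaling. In HSC against BM it was -0.16 (adjusted p = 0.931), with overlapping arrays, and 0.19 with median scaling.

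**Figure D2:**
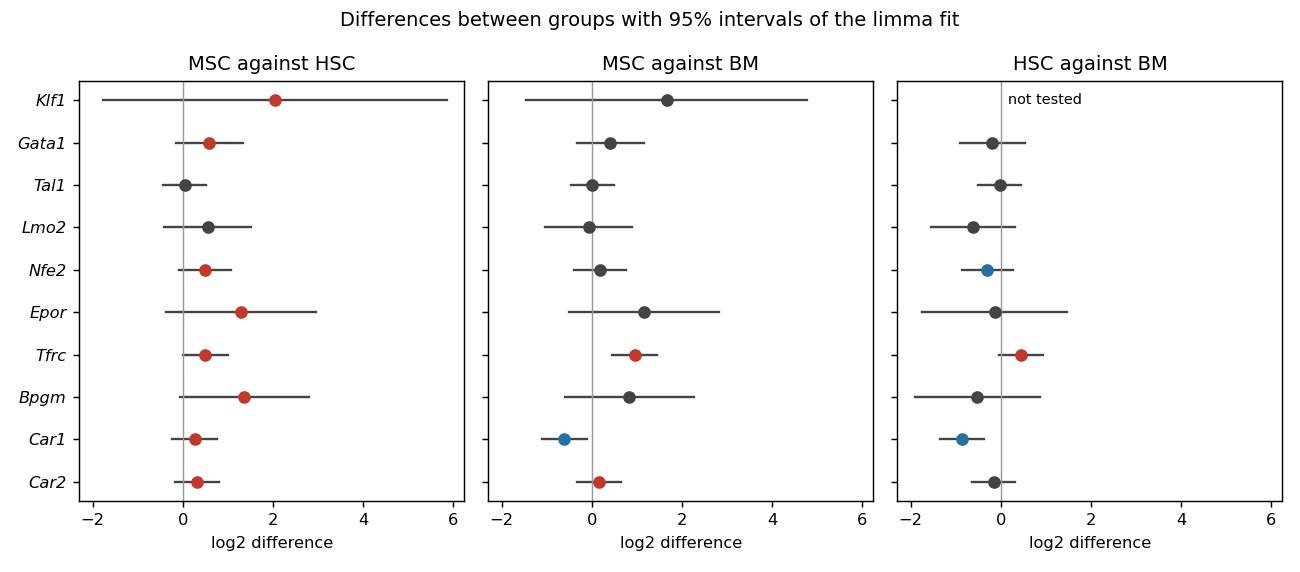
Log2 difference of each member (x axis) in MSC against HSC, MSC against BM and HSC against BM, with the 95% interval of the limma fit over 6 arrays. Red points are members whose first group lies wholly above the second, blue points those wholly below and grey points those that overlap; no member passed an adjusted p of 0.05, and the Car2 values are partly or wholly those of saturated spots. The intervals of Tfrc in MSC against BM (0.45 to 1.45) and of Car1 against BM (-1.11 to -0.10 for MSC and -1.36 to -0.37 for HSC) leave out 0.

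The 2 pools of a group differed unevenly over the members. Between the BM pools, replicate 1 was higher by 4.25 for Klf1, 2.47 for Epor, 1.81 for Bpgm and 0.93 for Lmo2, while Tal1, Nfe2 and Car1 differed by 0.04 to 0.16. The BM replicate 2 spots of Klf1 and Epor were near background, so 4.25 and 2.47 are gaps between values as read and no measured folds. The Car2 spot was saturated on both BM arrays, so its pool difference was not measured. Of the 8848 probes above background on all 6 arrays, 99.2% had a smaller BM pool difference than Bpgm and 95.2% a smaller one than Lmo2. In the HSC group, replicate 1 was higher by 0.98 for Bpgm and 0.93 for Lmo2, larger than the pool difference of 98.0% and 97.6% of these probes. The MSC pools were within 0.77 of each other for every member, with Gata1 the most distant. Of the 8 members among these probes, replicate 1 was the higher array for 5 in BM, 7 in HSC and 6 in MSC. Each count includes Car2, which was saturated on both MSC and both BM arrays. Over all these probes replicate 1 was the higher array for 37.8% in BM, 43.6% in HSC and 57.5% in MSC. The HSC and the BM pool differences went together over the 8848 probes (r = 0.568 across probes of 4 arrays, which are not independent replicates), and they went against the MSC ones (r = -0.199 with HSC and -0.278 with BM). BM replicate 1 had 12324 probes above background and BM replicate 2 had 11245. The part of these array differences in the member values was not tested.

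**Figure D3:**
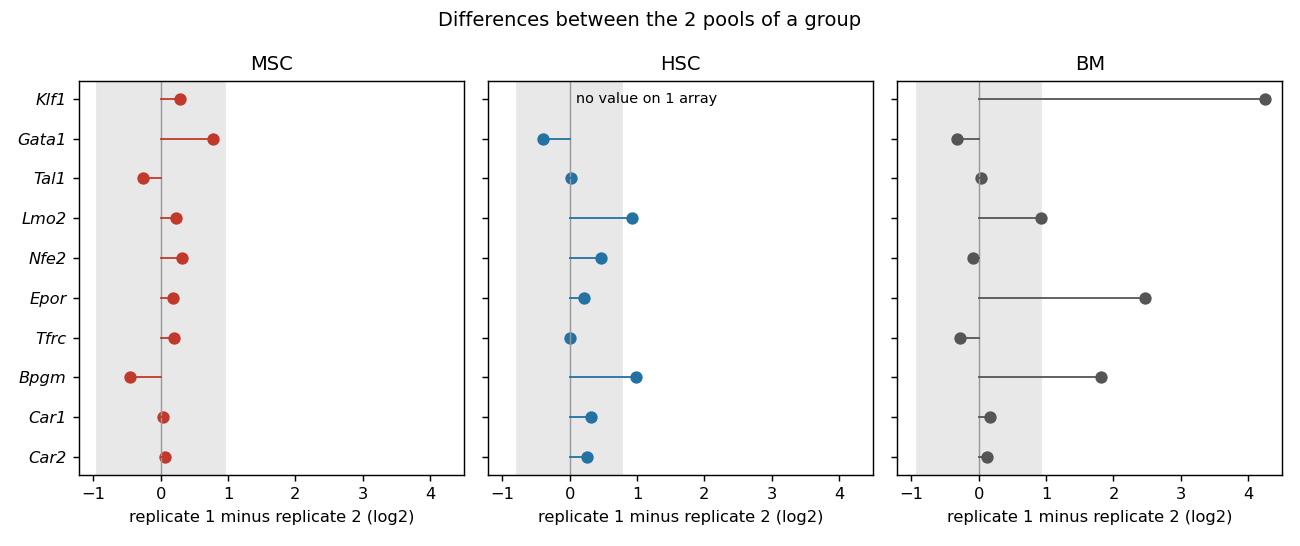
Replicate 1 minus replicate 2 of each member on the log2 scale (x axis) within the MSC, HSC and BM groups. Grey bands span 95% of the absolute pool differences of the 8848 probes above background on all 6 arrays. In BM, Bpgm (1.81) lies far outside the band, as do the values as read of Klf1 and Epor (4.25 and 2.47). Klf1 and Epor are not among the probes of the band, since their BM replicate 2 spots were near background. All members lie inside the band in MSC.

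The profile of 5 members was set against those of the 7242 named probes above background on all 6 arrays, by the mean absolute difference of the centred log2 values over the 6 arrays. For Bpgm the closest gene was Stom, which encodes the red cell membrane protein stomatin, at a mean difference of 0.0821. Stom was at 11.46 and 11.52 in MSC, 10.52 and 9.58 in HSC, and 11.51 and 9.70 in BM. Its BM replicate 1 lay above BM replicate 2 as for Bpgm, which the choice by closeness over these same arrays implies. Raly and Adrm1 followed at 0.0862 and 0.102. For Lmo2 the closest were Pip4k2c (0.0820), Gpd2 (0.0892) and Lims1 (0.104). For Gata1 they were 4930445E18Rik (0.0585), the phosphofructokinase gene Pfkm (0.0726) and Misp (0.0740). For Tfrc they were Tmem44 (0.0895), 4931406H21Rik (0.0985) and the embryonic beta-like globin gene Hbb-y (0.103). For Car1 they were Izumo4 (0.111), the urea transporter gene Slc14a1 (0.113) and Cdan1 (0.117). Likeness over 6 arrays is given as a description.

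Genes that work with the members were counted from lists. Of all probes tested, 16.9% in MSC against HSC, 12.4% in MSC against BM and 5.37% in HSC against BM had an unadjusted p under 0.05, the background for each such count below. Of 24 partners of the erythroid transcription factors (cofactors, repressors and targets), 21 were on the array and 20 tested in MSC against HSC, of which 0 passed limma, 5 had an unadjusted p under 0.05 and 17 were above 0, with a median of 0.49. The largest values were those of Bcl2l1, which encodes the survival protein BCL-XL (not above background in HSC, at least 2.58-fold higher in MSC when that group is set at the lowest signal above background, limma adjusted p = 0.148), the KLF factor gene Klf3 (1.62 ± 0.52, adjusted p = 0.206), Lyl1, a relative of Tal1 (1.10 ± 0.89, adjusted p = 0.562), and Sox6, which encodes a silencer of embryonic globin (0.78 ± 0.28, adjusted p = 0.242). In MSC against BM 0 of 20 passed, with 2 at an unadjusted p under 0.05 and a median of 0.05, and in HSC against BM 0 of 18, with 1 and a median of -0.41.

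Genes of erythropoietin signalling divided. Of 12 tested genes 0 passed in MSC against HSC, 2 had an unadjusted p under 0.05, 8 were above 0 and the median was 0.11. Pim1 and Cish, target genes of STAT5, had the lowest p-values. Socs1, Socs2 and Socs3 on the same list differed by 0.25, 0.05 and 0.53 in MSC against HSC, with overlapping arrays. Cish was at 9.57 and 10.35 on the MSC arrays, 8.74 and 8.38 on the HSC arrays, and 8.05 and 8.21 on the BM arrays. The MSC pools were the highest, with a difference of 1.40 ± 0.30 against HSC (limma adjusted p = 0.118) and 1.83 ± 0.30 against BM (adjusted p = 0.0828). Pim1 was at 10.83 and 11.62 in MSC, 9.38 and 7.47 in HSC, and 9.83 and 8.21 in BM, a difference of 2.80 ± 0.74 against HSC (limma adjusted p = 0.153, with 1 of 2 HSC arrays above background). Ptpn6, which encodes a phosphatase that shuts the receptor off, differed by 1.87 ± 1.20 and the kinase gene Lyn by -0.54 ± 0.37 in MSC against HSC (limma adjusted p = 0.463 and 0.491). In MSC against BM 0 of 12 passed, with 5 at an unadjusted p under 0.05, and in HSC against BM 0 of 11, with 3.

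Iron handling genes, of which 11 were tested in each comparison, had 0 calls by limma. In MSC against HSC 2 had an unadjusted p under 0.05 and 10 were above 0 (median 0.35), and in HSC against BM all 11 were below 0 (median -0.26, 0 with an unadjusted p under 0.05). Those furthest from 0 in MSC against HSC were Ncoa4, a ferritin receptor gene (1.65 ± 0.84), the ferritin light chain gene Ftl1 (1.43 ± 0.39, 1 HSC array), the iron transporter gene Slc11a2 (0.97 ± 0.33, 1 HSC array) and the iron exporter gene Slc40a1 (0.94 ± 0.45), with limma adjusted p of 0.174 to 0.368. Of 22 glycolytic and redox enzyme genes, 0 passed in each comparison, with 3, 2 and 1 at an unadjusted p under 0.05 in MSC against HSC, MSC against BM and HSC against BM. Hk1, which encodes the hexokinase of red cells, had the lowest adjusted p. It was at 10.61 and 10.55 on the MSC arrays, 9.34 and 8.73 on the HSC arrays, and 9.70 and 9.41 on the BM arrays. The MSC pools lay above all others, by 1.55 ± 0.26 against HSC (limma adjusted p = 0.0741) and 1.03 ± 0.26 against BM (adjusted p = 0.229). In MSC against HSC 18 of the 22 were above 0, with a median of 0.25. Aldoa, Pgk1 and Eno1 differed by 0.57 to 0.59 there, and Pgam1, Pgd and G6pdx by -0.35, -0.14 and -0.14. Of 13 other carbonic anhydrase genes on the array, 4 were tested and 0 passed in any comparison (0, 1 and 1 at an unadjusted p under 0.05). Car13 was at 10.58 and 10.73 in MSC, 10.83 and 10.94 in HSC, and 9.73 and 10.14 in BM, so that it stood above BM in both recipient groups, the opposite of Car1. The other 3 tested, Car3, Car14 and Car9, differed by 0.82, 0.41 and -0.28 in MSC against HSC. Car3 and Car14 also read above BM on every usable array of both recipient groups. For Car3 the 1 usable BM spot was not above background, and Car14 differed by only 0.05 in HSC against BM. Of all probes tested, 21.2% lay wholly above BM in each of these comparisons.

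Heme synthesis and red cell membrane genes had 0 calls as well. In MSC against HSC all 7 heme enzyme genes tested were above 0 (median 0.94, 4 at an unadjusted p under 0.05), with Fech, Alad and Urod at 1.41, 1.24 and 1.12. Of 17 membrane and globin genes, 13 were above 0 (median 0.68, 6 at an unadjusted p under 0.05) and 4 below, with Ermap lowest at -0.36. Add2, Dmtn, Slc4a1 and Tspan33 were at 1.85, 1.78, 1.72 and 1.07, the value of Add2 resting on 1 HSC array. The BM pools were split for these genes, at 10.47 and 9.07 for Add2, 11.20 and 8.67 for Dmtn, 13.17 and 10.24 for Slc4a1, and 11.44 and 9.98 for Tspan33. Saturation was not counted for list genes, and some, such as Hbb-bt at 15.60 to 15.70, read above the saturated Car2 spots.

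Megakaryocyte and platelet genes, whose cells share GATA1, TAL1, LMO2 and NF-E2, included genes that passed the test. In MSC against BM 9 of 10 were below 0 and 3 passed, against 0.430% of all probes tested. The platelet chemokine gene Ppbp fell by 3.94, Treml1 fell by 3.30 and the receptor gene Clec1b fell by 2.61 on the log2 scale (limma adjusted p = 0.00545, 0.00625 and 0.00983). In HSC against BM 7 of 8 were below 0 and 2 passed, Ppbp and Treml1, against 0.0359% of all probes tested. In MSC against HSC 5 of 9 were below 0 and 1 passed, against 0.480%, as Ppbp fell by 1.57 (limma adjusted p = 0.0493). The mean level over 10 of these genes was 8.51 to 8.55 on the MSC arrays, 8.55 to 8.93 on the HSC arrays and 9.71 to 10.05 on the BM arrays. Of the 4 factors, Tal1 and Lmo2 differed by 0.01 and -0.07 in MSC against BM and Gata1 and Nfe2 by 0.40 and 0.19. For osteoclasts, which also use Car2, 0 of 5 listed genes passed in MSC against HSC (0 at an unadjusted p under 0.05), and the collagenase gene Ctsk was at 8.44 and 11.46 in MSC, 8.44 and 7.04 in HSC, and 7.76 and 6.69 in BM. The part of these cells in the member values was not tested. Lists of mast cells with basophils and eosinophils, stem and progenitor cells, endothelium, neutrophils and marrow leukocytes had 0 calls in MSC against HSC. At an unadjusted p under 0.05 were 1 of 9, 1 of 7, 2 of 6, 1 of 10 and 1 of 5 genes tested.

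**Figure D4:**
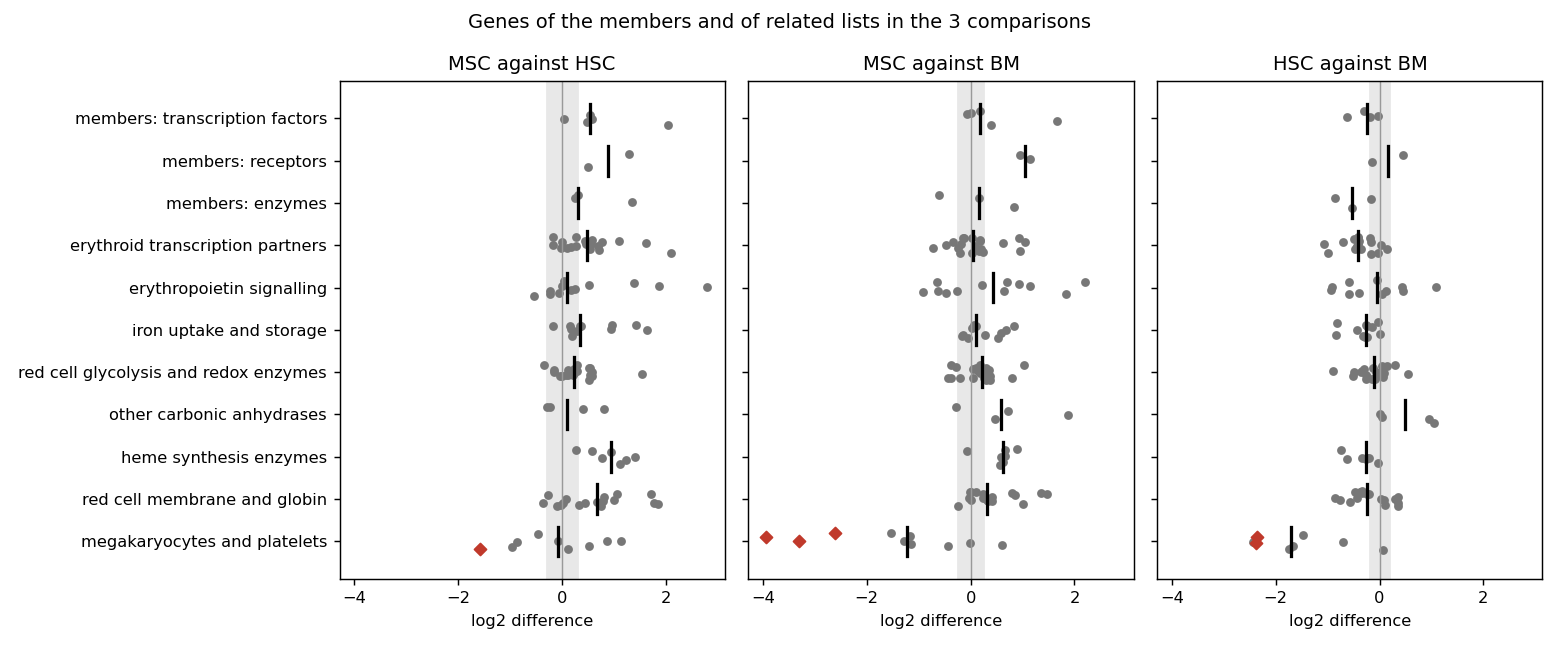
Log2 difference (x axis) of single genes in the members and related lists, in the 3 comparisons, with a black bar at the median of each list and a grey band over the middle 50% of all probes tested. Red diamonds are genes with an adjusted p under 0.05 by limma, all of them platelet genes that fell. In MSC against HSC the medians of the heme synthesis (0.94) and membrane and globin (0.68) genes lie right of the band, as do those of the transcription partners (0.49), the iron genes (0.35) and the factors (0.55) and receptors (0.90) among the members. The medians of the osteoclast (0.51) and endothelium (0.42) lists, not drawn, lie there too.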

How the data were processed

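RNA of 6 marrow pools had been hybridized to 1-colour CodeLink 20K arrays and scanned, per the file headers, with CodeLink Expression Analysis 4.0.0.23520. The deposited scanner files give spot and local background intensity with quality marks. The deposited value table holds log2 values made by the authors, which follow the order of the absolute scanner values with equal medians (7.87); their normalization is not given in the sources used here, and they served as an alternative. Spot means were corrected with normexp (offset 50), controls and spots marked contaminated or defective were left out, and log2 values were quantile normalized. Probes were tested where all arrays of at least 1 of the 2 groups were above background. Limma 3.58.1 in R 4.3.3 was fitted over 6 arrays with 3 residual degrees of freedom, with Benjamini-Hochberg adjustment over all probes tested in a comparison. The script was tested on simulated data. The methods' t-test was run on the same values, at the limits of the study (p of 0.01, ratio of 2.5) and after adjustment. The number of arrays, 2 per group, limits the precision. Probes were named by sequence record (10709), gene number (3645) or platform annotation (278), and 5169 have no symbol here. Alternatives were another background correction or offset, median scaling, the deposited values, other filters on dim probes, only the arrays compared, the pool number as a block and each array left out. Named were all members, list genes past the threshold and up to 4 per list with the largest MSC against HSC difference. The 3 closest profiles were named for members above background on all arrays that ranged over at least 1. Car13, Ctsk, Pgam1, Pgd, G6pdx, Socs1, Socs2 and Socs3 were chosen after their values were seen. A gene that this rule would name is not reported here. Members and lists were chosen with earlier results of these data known. Python 3.11.15 with pandas 2.3.3 and matplotlib 3.10.9 made tables and figures.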

Additional observations from a re-analysis of the deposited data

How the results depend on the processing

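The number of members called was 0 in every comparison under each alternative except 1, the fit of MSC against BM without BM replicate 1, with 2 members (Klf1 and Epor), so that leaving out 1 array gave 0 to 2 calls. The median of the members lay between 0.37 and 0.65 in MSC against HSC, -0.04 and 0.47 in MSC against BM, and -0.60 and -0.05 in HSC against BM when each array was left out, with -0.04 and -0.60 reached without BM replicate 2. With median scaling, 4 members had every MSC array above every HSC array. The count was 7 or 8 with another background correction or the deposited values, and 8 or 9 without 1 MSC or HSC array. Fewer arrays can only keep or raise this count, save for Klf1 with its 1 usable HSC array, so 8 or 9 is no check. The share of all probes with this pattern was not counted in these settings. Median scaling turned the sign of Tal1 in all 3 comparisons (-0.21, -0.11 and 0.10), of Car1 in MSC against HSC (-0.04) and of Car2 in HSC against BM (0.19), and the deposited values that of Tal1 in MSC against BM (0.00); the cause was not tested. Leaving out 1 array gave Tal1 -0.10 to 0.17 in MSC against HSC and -0.12 to 0.14 in MSC against BM, Lmo2 -0.54 to 0.40, Klf1 -0.46 to 3.79, Epor -0.08 to 2.39 and Bpgm -0.07 to 1.74 in MSC against BM, and Epor -1.37 to 1.10, Bpgm -1.43 to 0.38 and Gata1 -0.39 to 0.01 in HSC against BM. Pool numbers name different mice, and the pool differences did not go together in 2 of 3 pairs of groups; with the pool number as a replicate block 0 members were called, the medians were 0.53, 0.30 and -0.19, and Klf1 in MSC against HSC, with 1 HSC array, was 3.18. Over all probes, calls in MSC against HSC were 56 in the main setting and 15 to 88 by limma in the alternatives, in MSC against BM 51 and 22 to 108, and in HSC against BM 4 and 0 to 70, with 1 of 4 higher in the main setting and 3 of 7 with median scaling. A fit with slide or scan as a block was not run, since each slide held 1 array and no scan time was used. Near background, as for Klf1 and Epor on BM replicate 2, and at saturation, as for Car2, the signal limits what can be measured.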
